A study of Mus musculus with 13 samples.

Results

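The genes described here are 10 genes of bile acid transport and its nuclear receptor in mouse liver: Slc10a1, Slc10a2, Abcb11, Abcb4, Abcc2, Abcc3, Abcc4, Slc51a, Slc51b and Nr1h4, out of 55353 genes listed in the files. They were chosen by name, and their unique molecular identifiers (UMIs, each standing for 1 captured transcript molecule) were counted in hepatocytes and in biliary epithelial cells (BECs) of every library. A barcode with at least 1500 UMIs was taken as a cell, which left 95563 barcodes. A barcode was taken as a hepatocyte if albumin (Alb) made up at least 1% of its UMIs and it held no UMI of the leukocyte gene Ptprc and under 2 of the epithelial gene Epcam. This gave 114 hepatocytes. A barcode with at least 2 Epcam UMIs and under 1% Alb is called an Epcam barcode here, and there were 7258 of these.

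The data are 13 droplet-based 3′ single-cell RNA-seq libraries of livers of C57BL/6J mice, males of 6 to 12 weeks. Mice received chow with 3,5-diethoxycarbonyl-1,4-dihydrocollidine (DDC), a porphyrinogenic agent that injures bile ducts and causes cholestasis with a ductular reaction, for 0, 3, 5, 9, 19 or 25 days, with 1 library from each of isolation protocols A and B per day. Day 0 is steady state (2 libraries), days 3 and 5 are onset (4 libraries), and days 9, 19 and 25 are progression (6 libraries). The last library, STOP B, comes from mice on DDC for 18 days followed by 7 days without it, by protocol B. A library is named by day and protocol, as D0 A, and the library titled D19 B carries day 18 in another label field. Protocol A sorted live singlets, Cd45+ leukocytes, Pdpn+ cells, Epcam+ cells, Lyve-1+ cells, cells that were Cd31+ but Lyve-1-, and retinoid-autofluorescent cells. Protocol B sorted live cells of a stellate cell preparation, Cd45+ Itgax+ Cd64- cells, Epcam+ cells and Cd3e+ Lyve-1- cells. Neither protocol had a gate for hepatocytes. The labels do not tie mice to libraries, so SDs and p-values measure the spread between libraries, which may be technical. Libraries held 29307190 to 108602421 UMIs, and 2 libraries shared at most 0.519% of the barcodes of the smaller one.

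Bile acids are made from cholesterol in hepatocytes, secreted across the canalicular membrane into bile and largely returned from the intestine with portal blood. Slc10a1 encodes NTCP, the sodium-dependent carrier that takes conjugated bile acids up from blood into hepatocytes, and Slc10a2 encodes ASBT, its relative that takes them up from the lumen across the apical membrane of ileal enterocytes and cholangiocytes. Abcb11 encodes BSEP, the canalicular bile salt export pump, Abcb4 the canalicular phospholipid floppase MDR2, and Abcc2 the canalicular conjugate exporter MRP2. Abcc3 (MRP3), Abcc4 (MRP4) and the heterodimer of Slc51a and Slc51b (OSTα and OSTβ) export bile acids and conjugates across the basolateral membrane. Nr1h4 encodes FXR, the nuclear receptor that binds bile acids and regulates genes of their synthesis and transport.

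To show where transcription of the uptake carriers and of the export pump starts, the 250 bases before the annotated start are given for Slc10a1, Slc10a2 and Abcb11, the latter a known target of FXR. The sequences are RefSeq's on GRCm38.p6, and each is read 5′ to 3′ on the minus strand, on which all 3 genes lie. The windows are chr12:80968706-80968955 for Slc10a1 (one of its 2 annotated starts), chr8:5105288-5105537 for Slc10a2 and chr2:69342617-69342866 for Abcb11. Capitals mark matches to a nuclear receptor half-site (AGGTCA, or TGACCT on the other strand) or to a half-site of hepatocyte nuclear factor 1 (GTTAAT, or ATTAAC on the other strand).
Slc10a1: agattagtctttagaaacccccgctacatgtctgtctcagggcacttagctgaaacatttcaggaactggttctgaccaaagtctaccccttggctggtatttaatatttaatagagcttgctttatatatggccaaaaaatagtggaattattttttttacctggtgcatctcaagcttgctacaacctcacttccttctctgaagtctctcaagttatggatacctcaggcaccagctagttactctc
Slc10a2: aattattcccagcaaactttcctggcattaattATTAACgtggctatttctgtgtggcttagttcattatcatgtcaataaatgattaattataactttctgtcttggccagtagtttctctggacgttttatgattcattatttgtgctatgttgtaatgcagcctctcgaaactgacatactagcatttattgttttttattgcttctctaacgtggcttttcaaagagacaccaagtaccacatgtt
Abcb11: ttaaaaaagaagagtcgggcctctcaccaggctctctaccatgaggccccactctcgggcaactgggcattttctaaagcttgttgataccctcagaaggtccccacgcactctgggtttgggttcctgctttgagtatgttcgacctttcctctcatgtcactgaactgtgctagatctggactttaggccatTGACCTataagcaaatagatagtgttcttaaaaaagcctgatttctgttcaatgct

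Of the 10 genes, 9 had an entry, with 11 annotated starts in all. The window of Slc10a2 held an HNF1 half-site at position -217, the window of Abcb11 held a nuclear receptor half-site at position -56, and the window of Slc10a1 shown held neither. The window of the other Slc10a1 start held a nuclear receptor half-site at position -87. The nuclear receptor half-site was in 6 of the 11 windows of these genes and in 14.0% of the 32851 promoter windows of RefSeq. The HNF1 half-site was in 2 of the 11 and in 6.43% of all windows. The inverted repeat of the nuclear receptor half-site spaced by 1 base (AGGTCANTGACCT), which contains the half-site, was in 0 of the 11 windows and in 0.00609% of all. The palindrome of the HNF1 half-site (GTTAATNATTAAC), which likewise contains its half-site, was also in 0 of the 11 and in 0.00913% of all. Only exact matches were counted. A repeat with a changed base, such as aggccatTGACCT in the window of Abcb11, was not sought. These matches only say which letters the windows hold.

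The labels of both cell classes were first set against their markers. In the 3 libraries with at least 20 hepatocytes (D0 A with 21, D25 B with 27 and STOP B with 56), all 8 hepatocyte markers were detected, with a summed level of 15302 to 42703 CPM (UMIs of a gene scaled to 1000000 UMIs of the class). The transthyretin gene Ttr was found in 98.2% and the apolipoprotein gene Apoa1 in 93.9% of hepatocytes. Ttr was also found in 90.5% of BECs, whereas Apoa1 was found in 9.49%. Apoc3 was found in 90.4% of hepatocytes, Fgb in 87.7%, Arg1 in 71.1%, Cps1 in 47.4% and Cyp2e1 in 45.6%. Hnf4a was found in 29.8% of hepatocytes and 29.2% of BECs, and thus did not separate the classes. The remaining 10 hepatocytes lay in 5 libraries, and D3 A, D5 A, D5 B, D19 B and D25 A held none. Hepatocytes were shallow, with median UMI counts of 1983 to 3937 in these 3 libraries. Their median mitochondrial share was 14.2% in D0 A, 0.0635% in D25 B and 0.0448% in STOP B. In Epcam barcodes it was 3.39%, 2.30% and 2.34% in the same order. The part of this difference in comparisons of both classes was not tested. A UMI of Krt7, Krt19, Sox9 or Cldn7 was present in 15 of 114 hepatocytes (13.2%). By library it was 33.3% of those of D0 A, 11.1% of D25 B and 7.14% of STOP B. The summed biliary marker level of hepatocytes was 6498 CPM in D0 A, 1090 CPM in D25 B and 892 CPM in STOP B, most of it from Spp1. Their endothelial markers summed to 245, 7.26 and 3.43 CPM in the same order. The part of these transcripts in the hepatocyte values of D0 A was not tested. Just inside the Alb threshold, at 1% to 1.1%, lay 5 barcodes of D0 A, 1 of D25 B and 4 of STOP B, and just outside it, at 0.9% to 1%, lay 6, 2 and 6 barcodes.

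The Epcam gate held barcodes with leukocyte and endothelial transcripts as well as BECs. Ptprc was present in 42.5% of Epcam barcodes, in 97.5% of those of D5 A, 81.1% of D3 A and 75.8% of D0 B. In these 3 libraries the summed level of the 6 leukocyte markers in Epcam barcodes was 4838 to 9655 CPM and that of the biliary markers 236 to 2152 CPM, whereas in the other 10 libraries the sums were 153 to 4924 CPM and 9940 to 20871 CPM. Epcam barcodes free of Ptprc, Pecam1 and Dcn with at least 1 UMI of Krt7, Krt19 or Sox9 are therefore given beside the gate as Ptprc-free BECs, a choice made after seeing the data. They numbered 3013, with 56 to 812 in each of 10 libraries and 3, 10 and 1 in D0 B, D3 A and D5 A. Their median depth was 8553 to 21902 UMIs, 5 biliary markers were detected in each of the 10 libraries, and Krt19 was found in 95.9% of Ptprc-free BECs. Epcam barcodes with Ptprc also held biliary transcripts, with Krt19 in 52.9%, Sox9 in 49.7% and Krt7 in 45.9% of them. Whether these were BECs with leukocyte RNA was not tested. Leukocyte markers summed to 17.0 to 388 CPM in Ptprc-free BECs. The 5 endothelial markers summed to 90.0 to 731 CPM in Epcam barcodes and to 4.92 to 75.0 CPM in Ptprc-free BECs, and those of stellate cells and fibroblasts to 0 to 410 CPM and 2.02 to 84.4 CPM. The 78 barcodes that met both the Alb and the Epcam threshold were left out of both classes.

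**Figure D1:**
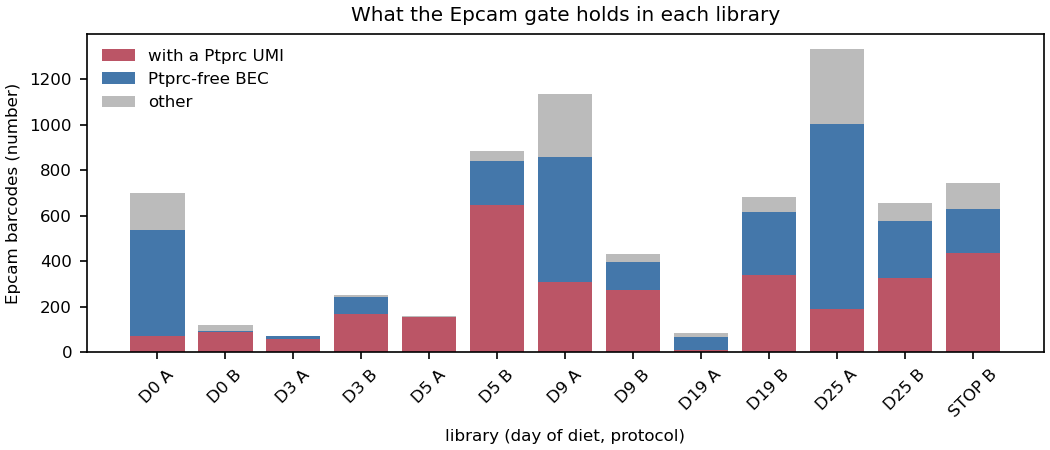
Number of Epcam barcodes (vertical axis) in each of the 13 libraries, stacked as barcodes with a Ptprc UMI, Ptprc-free BECs and others. Ptprc-free BECs number 3, 10 and 1 in D0 B, D3 A and D5 A, and 812 in D25 A.

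The 10 genes fell into different patterns over hepatocytes, BECs, leukocytes (Ptprc at least 2 UMIs), endothelial cells (Pecam1 at least 2) and stellate cells and fibroblasts (Dcn at least 2). Pooled over all libraries, Slc10a1 was at 118 CPM in hepatocytes (70 UMIs, exact Poisson 95% interval 92.0 to 149) against 3.16 CPM in Ptprc-free BECs and 3.68 CPM in leukocytes. Abcb11 was at 40.5 CPM in hepatocytes (24 UMIs, 25.9 to 60.2) against 0.113 CPM in BECs and 0.251 CPM in leukocytes. Abcb4 was at 82.6 CPM in hepatocytes, 3.41 CPM in BECs and 3.93 CPM in leukocytes. For these 3 genes the pooled level in BECs was below that in leukocytes, and for Slc10a1 and Abcb11 BECs were in no library above leukocytes with separate intervals, so their UMIs in BECs were not above background. In single libraries Abcb4 was lower in BECs than in leukocytes in 6 of 10 and higher in 4, with separate intervals in 2 either way (higher in D3 B and STOP B). It was higher in BECs than in stellate cells and fibroblasts in 9 of 9, with separate intervals in 2. Against endothelial cells it was higher in BECs in 6 of 10, with separate intervals in 1, and lower in 4, with separate intervals in 0. Intervals here and below cover counting error only.

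Abcc2 and Nr1h4 were higher in hepatocytes than in BECs, and in BECs they were above the level of leukocytes. Abcc2 was at 126 CPM in hepatocytes (75 UMIs, 232 CPM without STOP B), 7.38 CPM in Ptprc-free BECs and 0.979 CPM in leukocytes, and BECs lay above leukocytes in 10 of 10 libraries, each with separate intervals. Endothelial cells held Abcc2 at 3.83 CPM and lay below BECs in 8 of 10 libraries, with separate intervals in 4. Of the 75 hepatocyte UMIs, 22 lay in a single barcode of D19 A and 18 in a single barcode of D9 A. Nr1h4 was at 67.4 CPM in hepatocytes, 21.9 CPM in BECs and 1.41 CPM in leukocytes. Without STOP B the levels were 43.1 CPM in hepatocytes and 0.876 CPM in leukocytes. BECs again lay above leukocytes in 10 of 10 libraries. Stellate cells and fibroblasts held Nr1h4 at 81.0 CPM, and at 43.9 CPM without STOP B, and they lay below BECs in 4 of 9 libraries.

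Slc10a2, Abcc3 and Abcc4 had higher pooled levels in BECs than in hepatocytes, though Slc10a2 and Abcc4 were not called in the test given below. Slc10a2 was at 71.9 CPM in Ptprc-free BECs and 40.5 CPM in hepatocytes. Without STOP B the levels were 72.3 CPM in Ptprc-free BECs and 56.3 CPM in hepatocytes (17 UMIs). Leukocytes, endothelial cells and stellate cells held it at 0.251 to 0.623 CPM. BECs were above leukocytes and endothelial cells in 10 of 10 libraries. Abcc3 was at 69.9 CPM in BECs, 15.2 CPM in hepatocytes (26.5 CPM without STOP B) and 38.1 CPM in leukocytes. Of its 9 hepatocyte UMIs, 5 lay in a single barcode of D9 A. Leukocytes ranged widely in Abcc3, from 10.9 to 136 CPM over the 10 libraries with at least 20 Ptprc-free BECs, and lay above BECs in 2 of them. Abcc4 was at 28.5 CPM in BECs, 1.69 CPM in hepatocytes (1 UMI) and 71.4 CPM in endothelial cells, where it exceeded BECs in 10 of 10 libraries, each time with separate intervals. Leukocytes held it at 14.9 CPM and lay below BECs in 9 of 10 libraries.

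Both OST subunits were near the limit of detection. Slc51a and Slc51b had 0 of 593216 hepatocyte UMIs, which allows up to 6.22 CPM by the exact interval. In Ptprc-free BECs Slc51a held 39 UMIs (0.881 CPM, against 0.637 CPM in leukocytes) and Slc51b 13 UMIs (0.294 CPM, against 0.00576 CPM in leukocytes). In the comparisons of Epcam barcodes by stage given below, Slc51a was not called and Slc51b did not pass the filter on low counts.

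**Figure D2:**
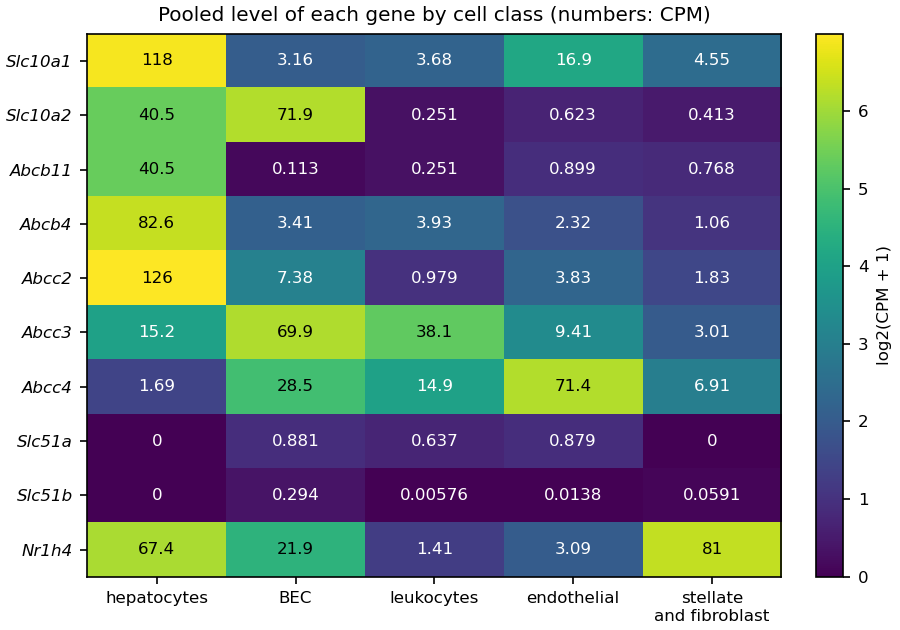
Heat map of the pooled level of each of the 10 genes in hepatocytes, Ptprc-free BECs (BEC), leukocytes, endothelial cells and stellate cells and fibroblasts, coloured by log2(CPM + 1) with the CPM printed in each field. Slc10a1, Abcb11, Abcb4 and Abcc2 are highest in hepatocytes, Slc10a2 and Abcc3 in BECs and Abcc4 in endothelial cells, while the 81.0 CPM of Nr1h4 in stellate cells and fibroblasts fall to 43.9 CPM without STOP B.

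The hepatocyte values of the 3 libraries rest on few UMIs, so each is given with its count. For Slc10a1, D0 A held 6 UMIs (105 CPM), D25 B 12 (87.2 CPM) and STOP B 42 (144 CPM). For Abcb11, D0 A held 4 UMIs (69.9 CPM), D25 B 0 of 137648 (which allows up to 26.8 CPM) and STOP B 12 (41.2 CPM). For Abcb4 the counts were 1 (17.5 CPM), 6 (43.6 CPM) and 17 (58.3 CPM) in the same order. The exact intervals of the 3 libraries overlapped for each of these 3 genes, and for Abcb11 those of D25 B and STOP B (21.3 to 71.9 CPM) only just did.

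For Abcc2, D0 A held 3 UMIs (52.4 CPM), D25 B 24 (174 CPM, 112 to 259) and STOP B 5 (17.2 CPM, 5.57 to 40.0). D25 B and STOP B were apart, and 12 of 27 hepatocytes of D25 B held the transcript against 5 of 56 of STOP B. For Nr1h4 the counts were 2 (34.9 CPM), 7 (50.9 CPM) and 27 (92.6 CPM) in D0 A, D25 B and STOP B, with overlapping intervals. With 1 library per condition and no onset library among them, the hepatocytes could not be compared by day with a test.

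Slc10a2, which is not usually counted among hepatocyte carriers, held 24 UMIs in 13 hepatocytes. D0 A held 1 of these UMIs, D25 B 7 and STOP B 7, and the remaining 9 lay in a single barcode of D19 A. Of the 13 barcodes, 3 also held a UMI of Krt7, Krt19, Sox9 or Cldn7, and in STOP B 0 of the 6 positive hepatocytes did. For Abcc3, 7 of 9 hepatocyte UMIs lay in barcodes with a biliary marker, as did the only UMI of Abcc4. The part of BEC RNA in these values was not tested.

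Which of these genes differ between both epithelia was asked by edgeR's quasi-likelihood test on summed UMIs, blocked by library, in D0 A, D25 B and STOP B. Slc10a1, Abcb4, Abcc2 and Nr1h4 were lower in Epcam barcodes than in hepatocytes, and Abcc3 was higher. The log2 fold change was -5.55 ± 0.68 (SE, adjusted p = 1.58e-14) for Slc10a1, -3.99 ± 0.80 (1.33e-05) for Abcb4, -3.41 ± 0.74 (9.27e-05) for Abcc2 and -2.44 ± 0.68 (0.00363) for Nr1h4, with Benjamini-Hochberg adjustment over all genes tested. Abcc3 had 2.47 ± 0.91 (adjusted p = 0.0371), a call that was lost with DESeq2, with no filter on low counts, with Alb at 0.5% or 2% and with Epcam at least 4. Of the 7 genes that passed the filter on low counts, 4 were thus called lower and 1 higher, where 20.1% of the 12035 genes tested were called, 6.51% as lower and 13.5% as higher. The median log2 fold change over all genes tested was 0.97.

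Slc10a2 and Abcc4 were not called in that comparison. Slc10a2 had a log2 fold change of -0.06 ± 0.68 (adjusted p = 0.961 by edgeR), and 0.41 ± 0.61 with Ptprc-free BECs (0.657). In all 3 libraries its level in Ptprc-free BECs was the higher one, at 55.9 against 17.5 CPM in D0 A, 52.8 against 50.9 CPM in D25 B and 61.8 against 24.0 CPM in STOP B, with separate intervals only in STOP B. Abcc4 had a log2 fold change of 2.99 ± 1.40 (adjusted p = 0.116), with 1 hepatocyte UMI behind it. Abcb11, Slc51a and Slc51b did not pass the filter. Abcb11 was lower in Ptprc-free BECs in D0 A and STOP B with separate intervals in both, and had 0 UMIs in both classes of D25 B.

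With Ptprc-free BECs in place of Epcam barcodes the same 5 genes were called in the same directions, where 25.4% of 8806 genes were called, 9.21% as lower and 16.2% as higher. The calls lean on single libraries, however. By the same edgeR test on Epcam barcodes, without D25 B the adjusted p of Abcc2 was 0.483 and that of Nr1h4 0.158, and Abcb4 and Abcc3 also lost their calls. Without STOP B, Nr1h4 (0.660), Abcb4 and Abcc3 lost theirs. Slc10a1 was called lower whichever of the 3 libraries was left out. The signs held in these fits. The log2 fold change ranged from -4.94 to -3.19 for Abcb4 and from -4.17 to -2.03 for Abcc2. It ranged from -2.93 to -1.52 for Nr1h4 and from 1.74 to 3.55 for Abcc3. Abcb11 passed the filter and was called lower without D25 B or with no filter.

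**Figure D3:**
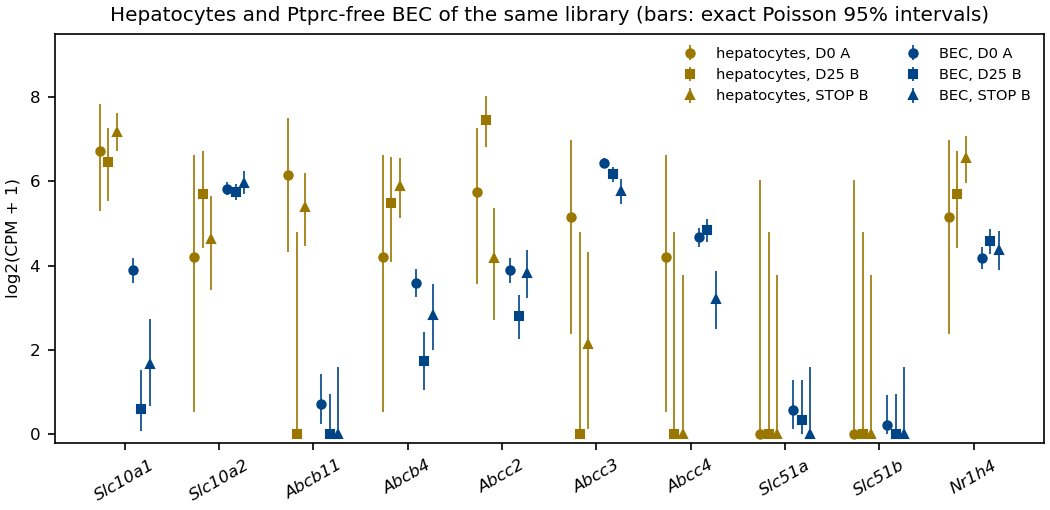
Level of the 10 genes, as log2(CPM + 1) with exact Poisson 95% intervals, in hepatocytes and in Ptprc-free BECs of D0 A, D25 B and STOP B, the libraries with at least 20 barcodes of both. Slc10a1, Abcb4, Abcc2 and Nr1h4 lie lower in BECs in all 3 libraries, and Slc10a2, Abcc3 and Abcc4 lie higher.

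Among 34 other genes of the pathway (synthesis, conjugation, other carriers, receptors and partners, detoxification), 23 were tested between Epcam barcodes and hepatocytes, and 15 were called lower and 1 higher, beside 6.51% and 13.5% of all genes tested. All 8 tested genes of bile acid synthesis and both conjugating enzymes were called lower. The largest decreases were those of Cyp2c70, which makes mouse muricholic acids (log2 fold change -9.06), the bile acid hydroxylase Cyp3a11 (-8.85) and the carrier Slco1b2 (-7.83). Cyp7a1, the rate-limiting enzyme of synthesis, had -7.12, from 14 hepatocyte UMIs in all, and Cyp8b1, the sterol 12α-hydroxylase, had -3.37. The gene called higher was Fgfr4, the receptor of the ileal hormone Fgf15, and that call compares with a count of 0. It held 0 UMIs in hepatocytes of all 3 libraries and 400, 273 and 205 UMIs in Epcam barcodes of D0 A, D25 B and STOP B (40.7, 19.96 and 14.3 CPM). A count of 0 allows up to 64.4 CPM in the hepatocytes of D0 A, 26.8 CPM in D25 B and 12.7 CPM in STOP B, and the intervals of both classes overlapped in each library. Nr0b2 (SHP), a target of FXR, had a log2 fold change of -1.19 and was not called (adjusted p = 0.232 by edgeR).

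The level of these genes in BECs by diet day was considered next, first in each library with at least 20 Ptprc-free BECs. Slc10a2 was at 55.9 CPM at steady state (D0 A), 92.9 and 52.5 CPM at onset (D3 B and D5 B), between 34.96 CPM (D9 B) and 96.9 CPM (D9 A) over the 6 progression libraries with a median of 51.3 CPM, and 61.8 CPM in STOP B. The steady-state value lay inside the range of both other groups. The values of D9 A (96.9 CPM) and D25 A (89.0 CPM) exceeded those of D9 B and D25 B (52.8 CPM), whereas D19 A (46.2 CPM) was close to D19 B (49.7 CPM). Barcodes with large-duct genes, in which Slc10a2 is compared further on, numbered 265 of 549 Ptprc-free BECs in D9 A and 318 of 812 in D25 A, against 33 of 125 in D9 B, 54 of 251 in D25 B, 2 of 56 in D19 A, 50 of 279 in D19 B and 48 of 467 in D0 A, and the part of this makeup in the levels by day was not tested.

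Abcc3 was at 85.5 CPM in D0 A, 77.3 CPM in D3 B and 71.8 CPM in D5 B, and 40.8 to 81.5 CPM at progression (62.3 ± 13.9, mean ± SD, n = 6). It was thus highest in the steady-state library, whose interval (78.3 to 93.2 CPM) overlapped those of D9 A, D25 B and both onset libraries. Nr1h4 was at 17.2 CPM in D0 A, 25.8 CPM in both onset libraries and 19.4 to 34.0 CPM at progression (24.9 ± 5.44, n = 6). D0 A held the lowest Nr1h4 value of the 10 libraries, and its interval (14.1 to 20.8 CPM) overlapped those of 7 of the 9 other libraries, all but D19 A and D19 B.

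Abcc4 was at 24.5 CPM in D0 A, 25.8 and 31.1 CPM at onset and 25.1 to 40.8 CPM at progression (31.6 ± 5.53, n = 6). Abcc2 was at 13.9 CPM in D0 A, 5.42 and 4.84 CPM at onset and 3.90 to 13.6 CPM at progression, with a median of 6.10 CPM. Slc10a1 was at 13.9 CPM in D0 A and 0.518 to 5.44 CPM in all 9 other libraries, and Abcb4 was at 11.1 CPM in D0 A and 0.404 to 8.81 CPM in the others. Slc10a1 and Abcb4 were thus highest in the steady-state library. The median Alb share of Ptprc-free BECs was also highest there, at 0.358% against 0.00435% to 0.235% in the other 9 libraries, as were the levels of Abcb4 (9.96 CPM) and Abcc2 (2.59 CPM) in leukocytes, and their part in these values was not tested. In D0 A the leukocytes held Slc10a1 at 15.8 CPM, the highest of the 13 libraries, so the level in BECs there was not above that of a class that should lack the gene.

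**Figure D4:**
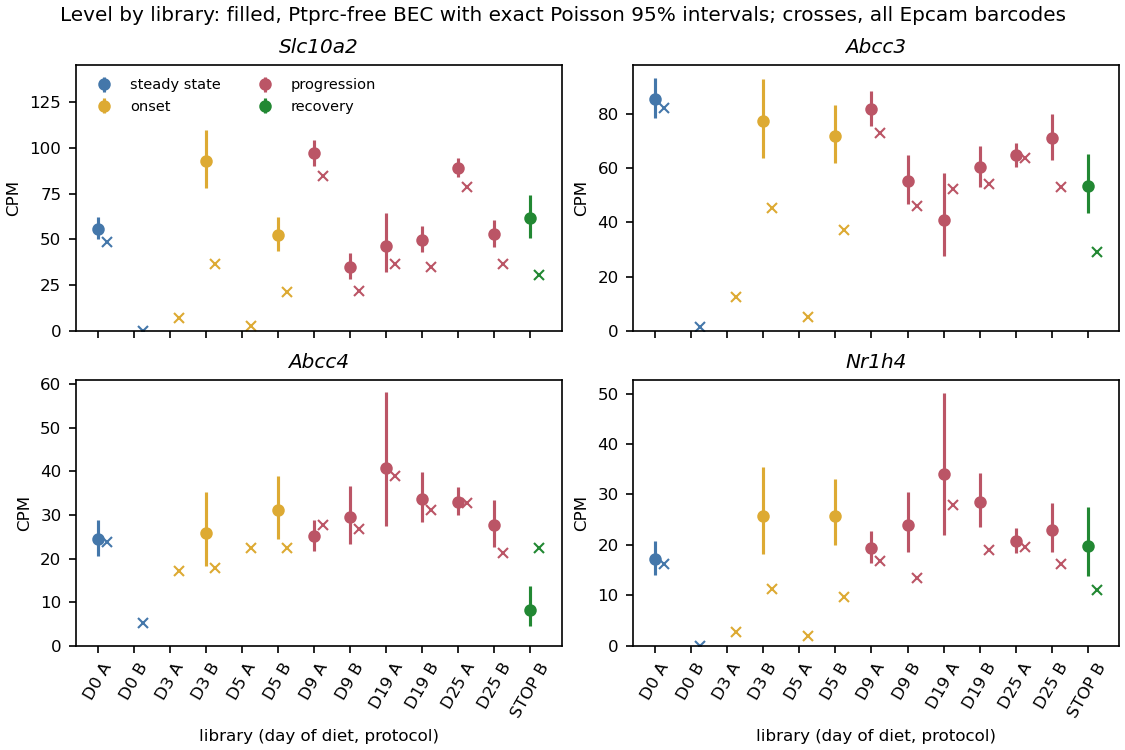
CPM of Slc10a2, Abcc3, Abcc4 and Nr1h4 (vertical axes) by library, coloured by stage, with filled points for Ptprc-free BECs (10 libraries, exact Poisson 95% intervals) and crosses for all Epcam barcodes (13 libraries). Abcc4 in Ptprc-free BECs of STOP B, at 8.28 CPM, lies below the other 9 libraries, which range from 24.5 to 40.8 CPM, and the crosses of D0 B, D3 A and D5 A lie low for Slc10a2, Abcc3 and Nr1h4.

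DDC libraries were compared with steady state by edgeR's quasi-likelihood test on the summed Epcam barcodes of 12 libraries. The model held a term for isolation protocol, and the mean of onset and progression was set against day 0. None of the 8 genes that passed the filter was called, and 0.00649% of all 15409 genes were (1 gene, Trem2, named here after its value was seen), with 1678 at an unadjusted p under 0.05. The log2 fold changes were 0.49 ± 0.99 (SE) for Slc10a2, -0.05 ± 0.83 for Abcc3, 0.80 ± 0.31 for Abcc4, 0.30 ± 0.72 for Nr1h4, -0.81 ± 0.61 for Abcc2, -1.06 ± 0.60 for Abcb4, -1.23 ± 0.76 for Slc10a1 and 0.94 ± 0.93 for Slc51a. The adjusted p nearest to the threshold was that of Abcc4 at 0.375 (edgeR), a gene that is high in endothelial cells. With Ptprc-free BECs, where steady state is D0 A alone, none of 7 tested genes was called and 0.787% of 13589 genes were (0.25% higher, 0.537% lower). Slc10a1 then had a log2 fold change of -3.19 ± 0.93 (adjusted p = 0.118 by edgeR).

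Separated by protocol, the same contrast gave opposite signs for 6 of the 7 genes tested in both, all but Abcc4. Each protocol has a single steady-state library, so these fits take the spread from the other stages and assume that it varies like them. In protocol A libraries alone, where 17.2% of genes were called (6.48% higher, 10.8% lower), Abcc3 (log2 fold change -1.54) and Slc10a1 (-1.90) were called lower under DDC. For Abcc3 the lowest levels there were those of D3 A (12.4 CPM) and D5 A (5.19 CPM), whose Epcam barcodes were mostly Ptprc-positive, while D9 A, D19 A and D25 A held 73.0, 52.4 and 63.5 CPM against 82.0 CPM in D0 A. In protocol B libraries alone, where 15.0% were called (9.52% higher, 5.52% lower), Abcc3 (4.66), Slc10a2 and Nr1h4 were called higher, in each case against a single library with 0 or 1 UMI. The steady-state library of protocol B, D0 B, held 0 UMIs of Slc10a1, Slc10a2, Abcc2 and Nr1h4 and 1 each of Abcb4 and Abcc3 in its 120 Epcam barcodes, of which 3 were Ptprc-free BECs, and 75.8% of the 120 held Ptprc, against 10.1% in D0 A. The part of leukocytes in these values was not tested. The fit without D0 B, D3 A and D5 A also has a single steady-state library, D0 A, and the same limit.

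Progression against onset gave no call either. None of the 8 tested genes was called and 0.00649% of all genes were (1 gene, Nectin1, likewise named after its value was seen), with 3662 at an unadjusted p under 0.05. The log2 fold changes were 1.11 ± 0.82 for Slc10a2, 0.98 ± 0.69 for Abcc3, 1.22 ± 0.57 for Nr1h4 and 0.33 ± 0.23 for Abcc4 in Epcam barcodes. With Ptprc-free BECs the first 3 turned to -0.71 ± 0.34, -0.33 ± 0.28 and -0.11 ± 0.25 and Abcc4 to 0.01 ± 0.24, none of 7 was called, and 0.00736% of all genes were. In protocol A libraries alone, where 27.9% of genes were called (15.5% higher, 12.4% lower), Slc10a2 (3.73), Abcc3 (2.72) and Nr1h4 (2.95) were called higher at progression, and its onset libraries D3 A and D5 A held 10 and 1 Ptprc-free BECs. In protocol B libraries alone 0.0% of genes were called, with 2269 at an unadjusted p under 0.05. Of the other pathway genes 21 were tested in each of these contrasts and 0 were called, Nr0b2 (log2 fold change -0.80 under DDC and 0.93 at progression) and Cyp8b1 (-2.38 and -2.68) among them.

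Among Epcam barcodes, the genes were then compared between those with at least 2 UMIs summed over Dmbt1, Muc4 and Sox17, which mark the epithelium of large ducts and peribiliary glands, and those with none. The test was blocked by library over 9 libraries. Slc10a2 and Abcc3 were higher in the large-duct-gene-positive barcodes, with log2 fold changes of 1.54 ± 0.22 (SE, adjusted p = 1.59e-04 by edgeR) and 0.73 ± 0.15 (0.00186). Nr1h4 had 0.42 ± 0.15 (0.0424) and was called higher as well, while Abcb4 (-1.01 ± 0.29) and Abcc2 (-0.76 ± 0.25) were called lower. The calls of Nr1h4 and Abcc2 did not hold in Ptprc-free BECs, as given below. Abcb4, whose pooled level in BECs was not above that of leukocytes, lost its call within protocol A and did not pass the filter in Ptprc-free BECs. Abcc4 (-0.02 ± 0.11) and Slc10a1 (0.25 ± 0.27) were not called, and Abcb11, Slc51a and Slc51b did not pass the filter. Of 7 genes that passed the filter 3 were thus called higher and 2 lower, where 42.7% of the 13030 genes were called, 18.7% as higher and 24.0% as lower.

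The difference in Slc10a2 was seen in most libraries. In Ptprc-free BECs of the 9 libraries with at least 10 barcodes of both kinds, its level was higher in the large-duct-gene-positive barcodes in 8, with separate intervals in 7, and the median over libraries was 129 CPM against 44.7 CPM. The levels were 197 against 34.4 CPM in D0 A, 181 against 41.8 CPM in D3 B, 141 against 44.7 CPM in D9 A and 142 against 46.0 CPM in D25 A. The exception was D19 B, with 40.7 against 51.6 CPM and overlapping intervals. A higher level was thus seen in libraries of steady state, onset and progression, and also in STOP B, with 110 against 48.7 CPM.

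Abcc3 was higher in 7 of the 9 libraries, with separate intervals in 3, at 109 against 50.2 CPM in D9 A, 99.2 against 37.2 CPM in D25 A and 110 against 58.0 CPM in D25 B. It was lower in D3 B (60.9 against 86.7 CPM) and STOP B (44.0 against 54.0 CPM), with overlapping intervals. In D0 A the values were 101 and 82.0 CPM, also with overlapping intervals. Abcb4 was lower in 9 of 9 libraries, with separate intervals in 1. Slc51a was higher in 4 of the 9 libraries, with separate intervals in 1, and lower in 3. Pooled without STOP B it was at 1.99 against 0.404 CPM (28 and 11 UMIs).

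Positive barcodes were deeper in 7 of the 9 libraries, with a median of 15288 against 10520.5 UMIs in D9 A and 17953.5 against 12753.5 in D25 A, and a gate of at least 2 UMIs takes deeper barcodes more often. Their median mitochondrial share was also the higher one in 9 of 9 libraries, at 4.83% to 11.2% against 2.29% to 4.23%, and their median Alb share was the lower one in 9 of 9, at 0% in 8 libraries and 0.012% in D0 A against 0.0125% to 0.387%. The part of either in the result was not tested. The gate was also set after each barcode was thinned to 1500 UMIs, at any such UMI against none in place of at least 2. Slc10a2, Abcc3, Nr1h4, Abcb4 and Abcc2 then kept their calls. In Ptprc-free BECs, compared within 7 libraries where 43.0% of 10489 genes were called (21.8% higher, 21.2% lower), Slc10a2 had 1.77 ± 0.28 (adjusted p = 4.12e-04 by edgeR) and Abcc3 0.84 ± 0.21 (0.00720). Abcc2 (0.287) and Nr1h4 (0.147) were then not called. The call of Nr1h4 was also lost within each protocol, at Epcam at least 4, with no filter on low counts, with strict gates and without any one of 7 of the 9 libraries, and that of Abcc2 within protocol A and with strict gates. Abcc4 was lower in the positive Ptprc-free BECs in 8 of 9 libraries, with separate intervals in 2, and its log2 fold change there was -0.27 ± 0.16 (adjusted p = 0.199 by edgeR).

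**Figure D5:**
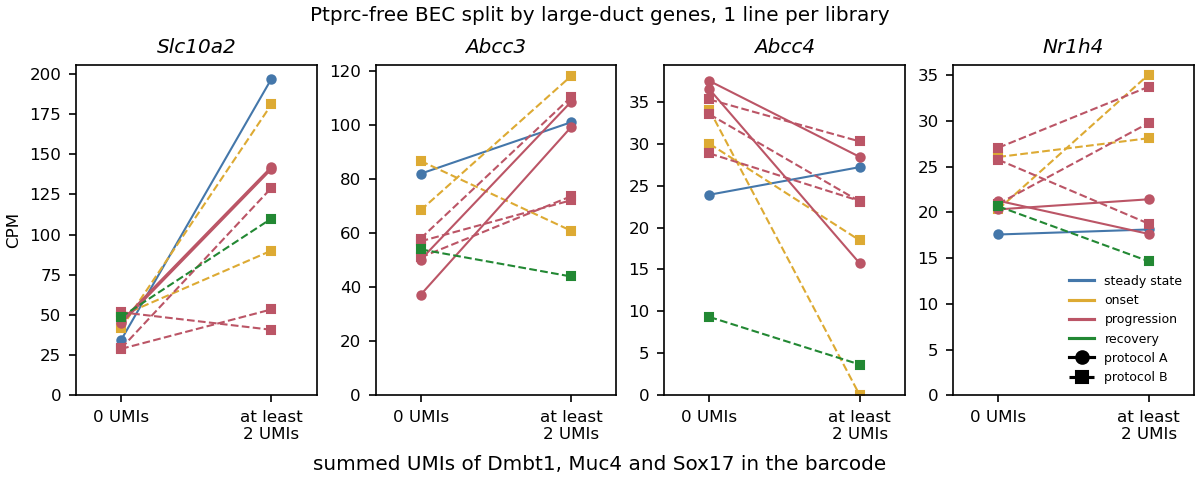
CPM of Slc10a2, Abcc3, Abcc4 and Nr1h4 (vertical axes) in Ptprc-free BECs with 0 and with at least 2 summed UMIs of Dmbt1, Muc4 and Sox17, with 1 line for each of 9 libraries, coloured by stage and dashed for protocol B. Slc10a2 is higher in the positive barcodes in 8 of 9 libraries, with D19 B as the exception, and Abcc4 is lower in 8 of 9, with D0 A as the exception.

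Of the other pathway genes 15 were tested in this comparison, and 5 were called higher and 3 lower, where 42.7% of all genes were called, 18.7% as higher and 24.0% as lower. The largest increases were those of the efflux pump Abcb1a (log2 fold change 1.81), of Nr0b2 (1.31) and of the xenobiotic receptor Nr1i2 (PXR, 1.22). The decreases were those of Fgfr4 (-1.20), Abcb1b (-0.90) and the efflux pump Abcg2 (-0.41). Of 6 tested receptors, partners and hormone genes 4 were called higher and 1 lower. Of 4 tested synthesis genes none was called. In Ptprc-free BECs 12 were tested, with 4 called higher and 2 lower, where 43.0% of all genes were called, and Abcb1a (2.40), Nr1i2 (1.58), Nr0b2 (1.56), Fgfr4 (-1.45) and Abcg2 (-0.67) were called in the same directions.

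The recovery library STOP B was set beside D19 B, which shares its protocol and is closest in diet. There is 1 library on each side and no test. In Epcam barcodes the ratio of STOP B to D19 B was 0.533 for Abcc3 (counting interval 0.470 to 0.604), 0.588 for Nr1h4 (0.477 to 0.724) and 0.718 for Abcc4 (0.616 to 0.837), and the levels' intervals were apart for these 3 genes. The Epcam barcodes of STOP B held endothelial markers at 704 CPM against 217 CPM in D19 B. Their leukocyte markers were at 3235 against 1983 CPM, and those of stellate cells and fibroblasts at 408 against 7.79 CPM. Ptprc was present in 58.9% of Epcam barcodes of STOP B and 49.6% of those of D19 B. The part of this makeup in the ratios of Abcc3, Nr1h4 and Abcc4 was not tested. None of these 3 genes was lower by 2-fold or more, as 4.97% of 12859 genes with at least 50 UMIs were, while 7.58% were higher by as much.

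In Ptprc-free BECs, Abcc3 (ratio 0.888) and Nr1h4 (0.696) had overlapping intervals, as did Slc10a2 (1.24). Abcc4 was at 8.28 CPM in STOP B (15 UMIs, 4.63 to 13.6) against 33.7 CPM in D19 B (138 UMIs), a ratio of 0.246 (0.134 to 0.420). Its interval in STOP B lay below those of all 9 other libraries. In the same library Abcc4 was at 79.6 CPM in endothelial cells, within the range of 57.5 to 94.0 CPM of the other 12 libraries, and at 13.9 CPM in leukocytes (4.68 to 24.1 CPM elsewhere). Over all Epcam barcodes of STOP B it was at 22.3 CPM. A difference of 2-fold or more was found for 8.02% of 9256 genes, 4.56% being lower and 3.46% higher, and 0.81% were lower by 4-fold or more. Abcc2 was higher in STOP B than in D19 B, at 13.2 CPM (24 UMIs) against 3.90 CPM (16 UMIs), with a ratio of 3.39 (1.73 to 6.84). D19 B held the lowest value of the 9 other libraries, whose median was 5.95 CPM, while D19 A stood at 13.6 CPM (10 UMIs). The intervals of 4 of these 9 lay below that of STOP B. Over all Epcam barcodes the ratio of Abcc2 was 1.23 (0.862 to 1.76), and leukocytes held it at 1.63 CPM in STOP B and 0.415 CPM in D19 B. The 13.9 CPM of Abcc2 at steady state lay within the STOP B interval (8.48 to 19.7 CPM). The median Alb share of Ptprc-free BECs was 0.143% in STOP B, 0.00707% in D19 B and 0.358% in D0 A. Their hepatocyte markers summed to 2281, 1098 and 1930 CPM in the same order. That sum includes Ttr and Hnf4a, which were found in 90.5% and 29.2% of Ptprc-free BECs and so do not mark hepatocyte RNA alone. The part of hepatocyte RNA in these Abcc2 values was not tested.

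The genes whose pattern was most like that of each transport gene were taken by Pearson's correlation of log2(CPM + 1) over 52 class sums (3 of hepatocytes, 13 each of Epcam barcodes, leukocytes and endothelial cells and 10 of stellate cells and fibroblasts). The sums share libraries and differ in depth, so the values are descriptions with no p. Slc10a2 was most like Bche (0.956), Cblc (0.955) and Gjb1 (0.954), and Nr1h4 most like Oaf (0.939), Aldh1a1 (0.914) and Arhgap42 (0.913). Abcc4 was most like Sptlc2 (0.922), Pcdh17 and Plcb4, and Abcc3 most like Ccdc148 (0.846), Slc6a6 and Ms4a8a. Of the genes highest in hepatocytes, Slc10a1 was most like Elovl5 (0.811), Cps1 and Cyp3a11, Abcb11 like Sult2a8 (0.855), BC024386 and Mup1, Abcb4 like Glud1 (0.801), Gucd1 and Mug1, and Abcc2 like Fga (0.860), Cyp2d10 and Slc38a3. For Slc51a the highest value was 0.699 with Gm38335, followed by Naip6 and Map2k3, and Slc51b had too few UMIs.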

How the data were processed

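For each library the deposited matrix holds raw UMI counts, which the authors made with kallisto and neither normalized nor filtered by barcode. GRCm38 is named in the submitters' processing notes, and the version of kallisto is not given in the sources used here. Genes are listed by symbol only, and whether counting used strand is not given. Barcodes with at least 1500 UMIs were kept and gated as described in the report, doublets were not called, and UMIs were summed per library and class with at least 20 barcodes. CPM are UMIs per 1000000 UMIs of the class sum.

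The sums were tested with edgeR 4.0.16 in R 4.3.3 (quasi-likelihood test, TMM, filterByExpr, Benjamini-Hochberg adjustment at 0.05 over all genes tested). The standard error was taken as the absolute log2 fold change over the root of the F statistic. The alternatives were DESeq2 1.42.0, all genes kept, a minimum of 3000 UMIs, Alb at 0.5% and 2%, Epcam at least 4, strict gates, each protocol alone, no protocol term the large-duct gate after thinning and each library left out. Ptprc-free BECs and the fits without D0 B, D3 A and D5 A were added after seeing the data. Intervals are exact Poisson 95% intervals for CPM and exact (Clopper-Pearson) binomial ones for shares. The members of the gene set and all lists were chosen with earlier results of these data known. The text names all 10 genes, though not each in every comparison. Of the other pathway genes it names up to 3 called genes per direction by size of change, and Nr0b2, Cyp7a1 and Cyp8b1 where tested.

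In simulated counts, where 200 genes were given a log2 change of 2, the test recovered 41% of these for DDC against steady state, 58.5% for progression against onset (15409 genes each), 15.5% for Epcam barcodes against hepatocytes (10568 genes) and 98.5% for the large-duct comparison (13027 genes). With Ptprc-free BECs it recovered 36%, 61%, 47.5% and 98.5% in the same order. False calls made up 1.20%, 1.68%, 3.1% and 6.19% of the calls, and 10%, 5.43%, 2.06% and 5.74% with Ptprc-free BECs. Single index kits were used for protocol A and dual index kits for protocol B, so the kit and the protocol cannot be told apart. A marker is not reported here.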

Additional observations from a re-analysis of the deposited data

Results flagged for a closer look

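In Ptprc-free BECs, Abcc2 stood at 13.6 CPM in D19 A, apart from the other 5 progression libraries, with a gap of 0.745 of the group's range. The value rests on 10 UMIs. It was the only one of 16 groups, each of at least 4 onset or progression libraries, in which a library stood apart by Dixon's criterion. Chance alone gives about 1 in 20 groups.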

How the results depend on the processing

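Hepatocytes were not compared by stage, since no onset library held 20 of them, and hepatocytes were tested against Epcam barcodes in 3 libraries of low depth. That comparison could not be fitted at 3000 UMIs or in protocol A, which leave 1 library. Counts of called genes by alternative follow, then the genes whose sign changed, and the causes were not tested beyond the fewer libraries or barcodes of an alternative.

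For DDC against steady state (1 gene called), DESeq2 called 419, no filter on low counts 41, protocol A 2570, protocol B 2333, no protocol term 0 by edgeR, leaving out D0 B, D3 A and D5 A 561 and Ptprc-free BECs 107. For progression against onset (1 called), these gave 2350, 711, 4165, 0, 2, 0 and 1, with 313 at Epcam at least 4 and 0 with strict gates. Outside the single-protocol fits, the only call among the 10 genes in these contrasts was Nr1h4 at progression without D0 A (log2 fold change 1.32, adjusted p = 0.04995 by edgeR). For Epcam barcodes against hepatocytes Alb at 0.5% gave 1174, and in the large-duct comparison each protocol alone gave 3493. Leaving out 1 library gave 1 to 859, 0 to 2358, 475 to 2971 and 4653 to 5449 in the 4 comparisons, and 2 to 494, 0 to 35, 607 to 3046 and 3392 to 4514 with Ptprc-free BECs. For DDC, 859 were called without D0 B, 827 without D0 A and, in Ptprc-free BECs, 494 without D3 B. For progression, 2358 were called without D0 A, 2259 without D0 B, 991 without D5 B and 511 without D3 B. For Epcam barcodes against hepatocytes, 475 were called without D25 B and 567 without STOP B, and 702 and 607 with Ptprc-free BECs.

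Under DDC, protocol B alone turned the log2 fold change of Slc10a1 to 7.52, Abcb4 to 0.70, Abcc2 to 8.11 and Abcc3 to 4.66, values set against 0 UMIs of Slc10a1 and Abcc2 and 1 each of Abcb4 and Abcc3 in D0 B and thus no measure of size, and protocol A alone turned Slc10a2 to -1.18 and Nr1h4 to -0.96. Abcc3 became 0.0063 with DESeq2, 0.012 without the filter and 0.55 with strict gates. Over fits without 1 library the ranges were -1.95 to 7.59 (Slc10a1), -0.43 to 11.11 (Slc10a2), -1.61 to 0.76 (Abcb4), -1.47 to 8.03 (Abcc2), -1.12 to 4.65 (Abcc3) and -0.43 to 9.87 (Nr1h4), and -0.28 to 0.19 for Abcc3 in Ptprc-free BECs.

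At progression, strict gates gave 0.34 (Slc10a1), -0.82 (Slc10a2), -0.16 (Abcc2), -0.49 (Abcc3), -0.075 (Abcc4) and -0.19 (Nr1h4). Ptprc-free BECs gave 0.50 (Slc10a1), -0.71 (Slc10a2), -0.071 (Abcc2), -0.33 (Abcc3) and -0.11 (Nr1h4). Protocol B gave 0.15 (Slc10a1) and -0.025 (Slc10a2), and leaving out D0 B, D3 A and D5 A gave 0.19 (Slc10a1) and -0.27 (Slc51a). Without 1 library Slc51a ranged from -0.093 to 0.61, and in Ptprc-free BECs Slc10a1 from -0.016 to 1.39, Abcb4 from -1.91 to 2.38, Abcc2 from -0.23 to 0.12 and Abcc4 from -0.15 to 0.20.

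Between Epcam barcodes and hepatocytes, Slc10a2 became 0.13 at Epcam at least 4, 0.37 with strict gates and 0.41 with Ptprc-free BECs, and -0.48 to 0.30 without 1 library. The call of Abcc3 was lost with DESeq2, no filter, Alb at 0.5% and 2% and Epcam at least 4. In the large-duct comparison Slc10a1 became -0.37 in protocol A and Abcc4 0.21 in protocol B, 0.017 with the thinned gate and -0.068 to 0.069 without 1 library, and the calls of Slc10a2 and Abcc3 held under every alternative run.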

Other observations

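Nr1h4, the gene of FXR, varied between libraries in the class of stellate cells and fibroblasts, which no comparison by day above uses. Its level there was 42.2 CPM in D0 A, 38.6 CPM in D5 A, 83.5 CPM in D5 B, 14.1 CPM in D9 A, 5.84 CPM in D9 B, 36.6 CPM in D19 A, 15.0 CPM in D19 B, 9.46 CPM in D25 A, 65.3 CPM in D25 B and 165 CPM in STOP B. STOP B, with 857 UMIs over 410 barcodes, was the highest of the 10 libraries with at least 20 such barcodes, and 67.3% of its barcodes held the transcript. In the 9 libraries with at least 20 barcodes of both classes, stellate cells and fibroblasts lay above Ptprc-free BECs in 5, with separate intervals in 4, and below them with separate intervals in 1. The class sums of D9 B, D5 A and D19 B held only 171121, 103593 and 266933 UMIs, so their values rest on few UMIs of Nr1h4. Leukocytes of STOP B held Nr1h4 at 5.12 CPM, against 0.208 to 4.77 CPM in the other 12 libraries. Its endothelial cells held 5.52 CPM, against 0 to 8.86 CPM. The difference between libraries was not tested.

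Cyp8b1, the sterol 12α-hydroxylase, held 146 UMIs (10.2 CPM) in the Epcam barcodes of STOP B but 0 UMIs in its Ptprc-free BECs. Slc10a1 was above Ptprc-free BECs in endothelial cells in 10 of 10 libraries, at 7.04 to 51.9 CPM, with separate intervals in 7. Neither was tested.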
